A study of Mus musculus with 6 samples.

Results

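The tumour suppressor p53, encoded in the mouse by Trp53, and 9 genes that it switches on (Cdkn1a, Mdm2, Ccng1, Trp53inp1, Bbc3, Bax, Gadd45a, Sesn1 and Perp) were followed in fibroblasts that carried an imidazole-rescuable or a non-rescuable form of the tyrosine kinase Src. Every probe set whose gene symbol was 1 of these 10 was taken, which gave 25 probe sets of the 45037 on the array that are not controls. A probe set is a group of short oligonucleotides that reads 1 transcript, and the 10 genes stand among 20915 named ones. Of the 25, 8 carried their symbol only in the annotation deposited with the values, among them all 6 for Trp53 and the 1 for Bax. After a filter on low signals, 21 of the 25 could be tested in the main summary and 19 in the second, with 18 in both. Every one of the 10 genes kept at least 1 of them.

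Total RNA of SYF cells was measured on Affymetrix mouse genome arrays. SYF cells are mouse embryonic fibroblasts without the related kinases Src, Yes and Fyn, and stable transfection had given them 1 of 2 Src mutants under hygromycin B selection. All cells were starved of serum overnight. Imidazole was then given or not, which made 6 groups of 1 array each.

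The R388A/Y527F line, whose kinase imidazole can rescue, was sampled as an untreated control at 0 h, after 1 h of 5 mM imidazole and after 12 h of 5 mM imidazole. The D386N/Y527F line, whose kinase imidazole does not rescue, was sampled at 0 h without imidazole and after 1 h and 12 h with it. Both proteins carry Y527F, a substitution at the tail tyrosine through which Src is normally held inactive. Untreated cells were sampled at 0 h alone, so hours in starvation and hours in imidazole cannot be told apart. Each line is 1 stably transfected population, so the Src mutant and any other difference between the populations cannot be told apart either. As background, SYF cells were immortalised with the SV40 large T antigen, a viral protein that binds p53. The labels do not mention it.

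All 6 arrays had the same trimmed mean signal of 150, and between 26044 and 27400 probe sets lay above a floor of 20.4, the 40th percentile of all signals. The ratio of 3' to 5' signal for Gapdh lay between 0.76 and 0.82. All 8 fibroblast markers were above the floor on every array, and some markers separated the lines. Thy1 read between 34.5 and 52.1 in the R388A/Y527F line and between 132 and 165 in the D386N/Y527F line. Pdgfrb read between 287 and 299 in the R388A/Y527F line and between 592 and 768 in the D386N/Y527F line. Col1a2 was lower in the R388A/Y527F line too, while Vim, Pdgfra and Fn1 were higher there, each without overlap. For Col1a1 and Col3a1 the lines overlapped. Of 4 neural and glial markers, Gfap, Sox10 and Tubb3 did not separate the lines. Only Map2 did, at 197 to 236 on the R388A/Y527F arrays and 105 to 129 on the D386N/Y527F arrays. Whether such differences play a part in the results was not tested. The main Src probe set read between 19.1 and 66.9 in the R388A/Y527F line and between 58.4 and 72.7 in the D386N/Y527F line, and whether it reads the transfected Src was not tested.

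p53 is a transcription factor that damaged DNA, activated oncogenes and other stresses stabilise. It binds the genes named above through a pair of short motifs, each a decamer, and their products halt the cell cycle, repair DNA, limit oxidative damage or start cell death. Mdm2 tags p53 for destruction and is itself a p53 target, which closes a feedback loop. In fibroblasts this pathway is best known for arrest after DNA damage and for senescence. Arrays read mRNA, while p53 is controlled mainly at the level of its protein, so Trp53 mRNA is not a measure of p53 activity.

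In the comparison of the lines, Gadd45a and Ccng1 were higher and Sesn1 was lower in the R388A/Y527F line, in both deposited summaries of the arrays. Gadd45a mRNA was 2.41-fold higher, the 3 Ccng1 probe sets were between 1.31-fold and 1.77-fold higher, and 3 of the 4 Sesn1 probe sets were between 1.26-fold and 1.55-fold lower. The main Trp53 probe set was 1.31-fold higher in the main summary and had a ratio of 1.29 in the second, where it did not pass. Bax and Bbc3, which drive cell death, lay at about the same signal on both lines. Neither 1 h nor 12 h of imidazole gave any of the 10 genes a change that passed the test.

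These calls come from a limma model with line and time over all 6 arrays, in which arrays of 3 times take the place of replicates. Change with time common to both lines is taken out by the model. Its p-values therefore rest on how much the line difference varied from time to time, with a variance prior from all probe sets. They do not measure the spread between replicate cultures. A probe set was called at a Benjamini-Hochberg adjusted p below 0.05 over all 29728 probe sets tested. With the main (GCOS) signal, 8 of the 21 tested members were called, 5 higher and 3 lower, or 38.1% against 14.1% of all probe sets. Of all probe sets, 6.82% were called higher and 7.25% lower. In the second summary 10 of 19 were called, 52.6% against 24.7% of all probe sets, and in both summaries 7 of 18, against 15.2%. The 8 called probe sets belong to 4 genes, and probe sets of 1 gene read 1 mRNA and are not independent. When the arrays of 1 time were left out, 3 of the member probe sets were called without the 0 h arrays, 1 without the 1 h arrays and 1 without the 12 h arrays. Of all 29728 probe sets, 1799, 112 and 282 were called in these settings.

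**Figure D1:**
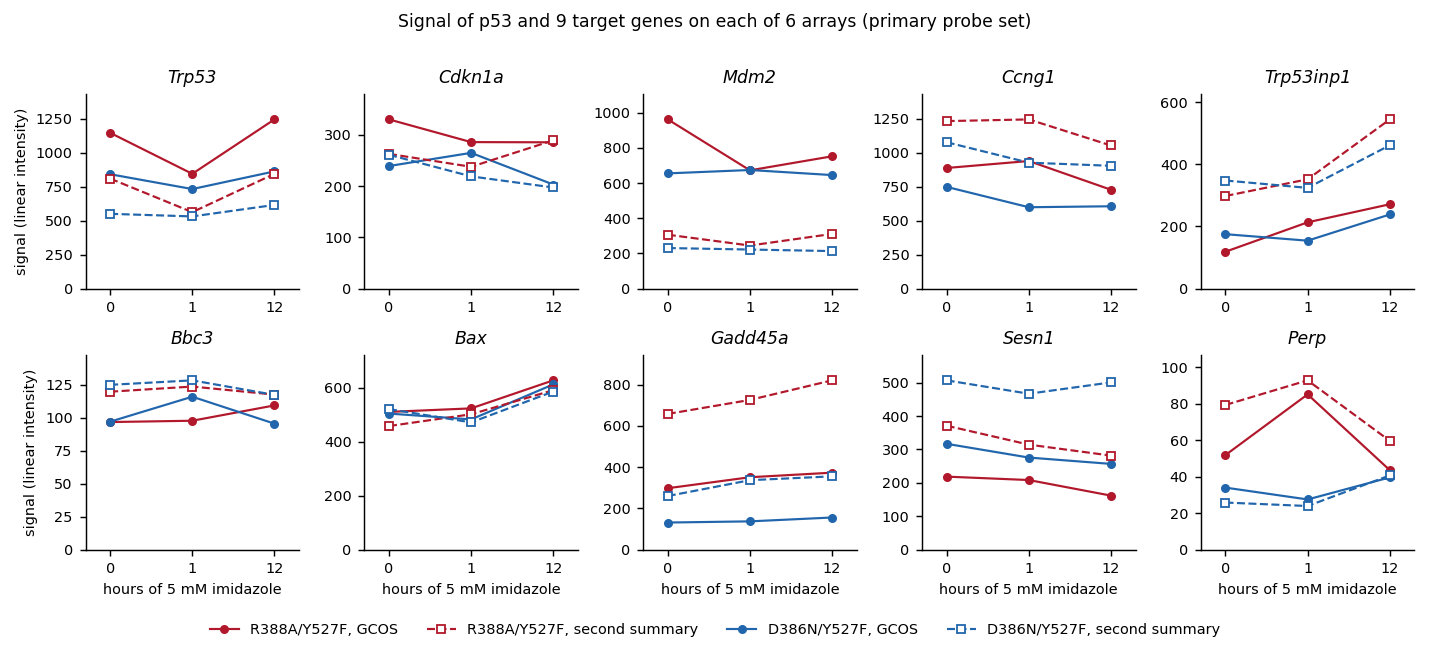
Signal (linear intensity, axes from 0) of the primary probe set of each of the 10 genes against hours of 5 mM imidazole, with R388A/Y527F in red, D386N/Y527F in blue, filled circles for the GCOS signal and open squares for the second summary. Each point is 1 array; the Gadd45a arrays of the 2 lines stand apart at every time, while those of Bax and Bbc3 lie together.

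Trp53 itself was read by 6 probe sets, of which 3 were tested in each summary. The main one, 1427739_a_at, gave, in order of time, 1146, 845 and 1245 in the R388A/Y527F line, against 842, 732 and 862 in the D386N/Y527F line. The R388A/Y527F array at 1 h fell inside the range of the D386N/Y527F arrays, so the lines overlapped. The log2 difference between the lines was 0.39 (SE 0.09, limma, adjusted p = 0.0183), and in the second summary 0.37 (SE 0.10, adjusted p = 0.0603). Without the arrays of 0, 1 or 12 h the main value had an adjusted p of 0.107, 0.0719 or 0.218.

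This probe set aligns to 2 places in the deposited annotation, 1 of them outside chromosome 11, where Trp53 lies. The probe set 1426538_a_at, with 1 alignment, gave 701, 474 and 757 in the R388A/Y527F line, against 510.3, 485 and 527.2 in the D386N/Y527F line. It had the same order, with the R388A/Y527F array at 1 h the lowest of its line and below all D386N/Y527F arrays. Its difference of 0.32 did not pass (SE 0.11, limma, adjusted p = 0.107). The third, 1457623_x_at, gave 114, 74.8 and 126 in the R388A/Y527F line, against 58.9, 61.6 and 74.4 in the D386N/Y527F line, and did not pass either (0.67, SE 0.21, adjusted p = 0.0750). The other 3 Trp53 probe sets were below the floor on every array in the main summary. One of them, 1438808_at, was above the second summary's floor and differed by 0.02 there.

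Mdm2, the ubiquitin ligase that restrains p53, was read by 3 probe sets. The main one, 1423605_a_at, gave 962, 673 and 752 in the R388A/Y527F line, against 655, 674 and 646 in the D386N/Y527F line. The untreated and the 12 h arrays of the R388A/Y527F line stood above the other line, and its 1 h array did not. The log2 difference was 0.26 (SE 0.11, limma, adjusted p = 0.161). With the second summary all 3 R388A/Y527F arrays stood above the 3 D386N/Y527F arrays, with a difference of 0.36 that did not pass (SE 0.10, adjusted p = 0.0531). For 1427718_a_at it was 0.45 (SE 0.14, adjusted p = 0.0729), and in the second summary, where the 3 R388A/Y527F arrays lay above the 3 D386N/Y527F arrays, it passed at 0.54 (SE 0.14, adjusted p = 0.0478), though not there without the 0 h arrays (0.146) or the 12 h arrays (0.201). The third, 1457929_at, was above the floor on 3 of the 6 arrays and differed by 0.16 (SE 0.23, adjusted p = 0.725).

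Among Gadd45a, Ccng1 and Cdkn1a, the arrest genes of the 10, Gadd45a had the largest difference between lines. Gadd45a binds the proliferating cell nuclear antigen and the Cdk1 kinase and acts in the G2 checkpoint and in DNA demethylation and repair. Its probe set gave 298, 351 and 373 in the R388A/Y527F line, against 131, 137 and 155 in the D386N/Y527F line. The lowest R388A/Y527F array was thus above the highest D386N/Y527F array, and the lines were more than 2-fold apart at each time. The ratios were 2.27 at 0 h, 2.57 at 1 h and 2.40 at 12 h. The difference was 1.27 on the log2 scale (95% confidence interval 1.03 to 1.51, limma, adjusted p = 0.000244), and 1.22 in the second summary (adjusted p = 0.00119). Without the 1 h arrays it was 1.22 with an adjusted p of 0.0513. The difference was already present in the untreated arrays.

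Ccng1 encodes cyclin G1, which recruits a phosphatase to Mdm2. The probe set 1450016_at gave 468, 391 and 464 in the R388A/Y527F line, against 227, 305 and 221 in the D386N/Y527F line. Every R388A/Y527F array was above every D386N/Y527F array, with the D386N/Y527F array at 1 h the nearest. Its difference was 0.82 (SE 0.14, limma, adjusted p = 0.00606) and in the second summary 0.92 (SE 0.12, adjusted p = 0.00678). For 1450017_at, whose lines did not overlap either, it was 0.68 (SE 0.10, adjusted p = 0.00415). The main one of the 3, 1420827_a_at, gave 888, 939 and 728 in the R388A/Y527F line, against 749, 599 and 606 in the D386N/Y527F line, so here the lines overlapped. It still passed, at 0.39 (SE 0.10, adjusted p = 0.0307). With the arrays of 1 time left out, the adjusted p lay between 0.0494 and 0.146 for 1450016_at, passing without the 1 h arrays, between 0.0459 and 0.0835 for 1450017_at, passing without the 0 h arrays, and between 0.0792 and 0.176 for 1420827_a_at.

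Cdkn1a encodes p21, the inhibitor of cyclin-dependent kinases that carries most of the p53-driven arrest in G1. Its main probe set gave 330.3, 286 and 286 in the R388A/Y527F line, against 239, 265 and 203 in the D386N/Y527F line. The lines did not overlap in the main summary, but they did in the second. The difference of 0.36 did not pass (SE 0.11, limma, adjusted p = 0.0666), nor did 0.23 in the second summary (SE 0.12, adjusted p = 0.256). A second probe set, 1421679_a_at, gave 15.8, 36.4 and 31.1 in the R388A/Y527F line and 7.0, 4.3 and 7.6, all below the floor, in the D386N/Y527F line. It passed only in the second summary (0.60, SE 0.10, adjusted p = 0.0138), and there not without the 1 h arrays (0.0597) or the 12 h arrays (0.0824). The other Cdkn1a probe set was above the floor on 1 array and was not tested.

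Over all tested members, 6 probe sets had all 3 R388A/Y527F arrays above the 3 D386N/Y527F arrays in the main summary, where 14.8% of all probe sets did. They belong to Trp53, Cdkn1a, Ccng1, Gadd45a and Perp. The Trp53 one is 1457623_x_at, which was below the second summary's floor on every array and not tested there. For the brighter Trp53 probe sets 1427739_a_at and 1426538_a_at the lines overlapped in both summaries. The second summary had 7 probe sets with the R388A/Y527F arrays all above, as did 17.0% of all probe sets there. Mdm2 stood in place of Trp53. The 3 probe sets with the opposite order were all Sesn1, against 15.4% of all probe sets in the main summary and 21.2% in the second. The lines differ at 4182 probe sets, so separate lines alone are common on these arrays.

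**Figure D2:**
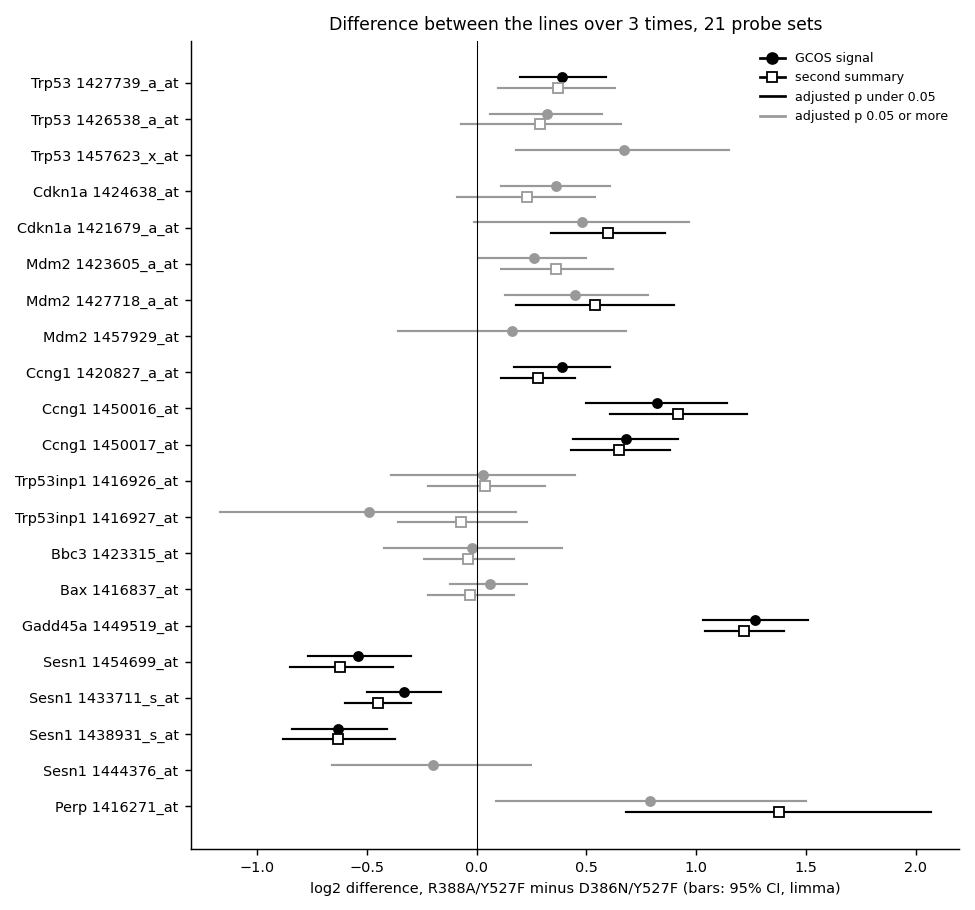
Log2 difference of the R388A/Y527F line minus the D386N/Y527F line for the 21 member probe sets tested in the main summary, with 95% confidence intervals from limma, circles for the GCOS signal and squares for the second summary, black where the adjusted p was below 0.05. Gadd45a (1.27) and the 3 Ccng1 probe sets lie to the right of 0 and 3 Sesn1 probe sets to the left in both summaries.

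Promoters are shown for the 3 genes called in both summaries and, because its p53 element is the classic one, for Cdkn1a. RefSeq (GRCm38.p6) gave start sites for 8 of the 10 genes, with 12 windows of 250 bases before a start. In each window a script searched exact matches to the p53 decamer, whose consensus reads the same on both strands. Capitals mark the matches.
Gadd45a, chr6:67037408-67037657, minus strand: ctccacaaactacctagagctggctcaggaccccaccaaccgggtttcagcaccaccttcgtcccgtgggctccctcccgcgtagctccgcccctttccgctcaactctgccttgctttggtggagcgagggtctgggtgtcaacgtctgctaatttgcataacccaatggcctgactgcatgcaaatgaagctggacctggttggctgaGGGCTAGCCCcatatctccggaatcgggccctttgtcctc
Ccng1, chr11:40755287-40755536, minus strand: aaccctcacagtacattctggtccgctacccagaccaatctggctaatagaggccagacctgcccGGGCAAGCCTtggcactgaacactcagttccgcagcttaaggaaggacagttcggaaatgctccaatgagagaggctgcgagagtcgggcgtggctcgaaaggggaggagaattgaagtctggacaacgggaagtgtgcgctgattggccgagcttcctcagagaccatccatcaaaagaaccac
Cdkn1a, first start, chr17:29090729-29090978, plus strand: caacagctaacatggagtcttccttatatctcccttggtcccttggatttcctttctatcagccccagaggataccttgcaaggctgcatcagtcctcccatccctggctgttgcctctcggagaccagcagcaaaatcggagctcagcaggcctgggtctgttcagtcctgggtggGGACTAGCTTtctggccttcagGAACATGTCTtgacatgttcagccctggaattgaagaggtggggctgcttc
Sesn1, second start, chr10:41887189-41887438, plus strand: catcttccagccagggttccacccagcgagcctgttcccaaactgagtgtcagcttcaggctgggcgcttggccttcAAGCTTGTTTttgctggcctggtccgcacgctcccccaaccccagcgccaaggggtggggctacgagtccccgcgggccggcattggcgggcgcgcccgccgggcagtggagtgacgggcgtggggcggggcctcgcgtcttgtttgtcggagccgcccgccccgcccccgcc
The Gadd45a match begins 40 bases before the start, and those of Ccng1 and Sesn1 begin 185 and 173 bases before it. The Cdkn1a window holds 2 matches with other bases between them, so they are not a joined pair. The decamer right after the second match misses the consensus at its first base and is not marked. Of the 12 member windows 7 held a decamer, as did 7.13% of all 32851 windows. They belong to Trp53, Cdkn1a, Mdm2, Ccng1, Bax, Gadd45a and Sesn1, which include genes that were higher, lower and not called, so a match did not sort the genes by direction. The motif TGANTCA, a form of the AP-1 site, was searched on both strands and was in 0 of the 12 windows and in 6.75% of all windows. A match of letters is not evidence of binding, and none of these windows was assayed.

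Among the genes of cell death, Bax, which opens the outer mitochondrial membrane, gave 509.8, 523 and 627 in the R388A/Y527F line, against 504, 482 and 612 in the D386N/Y527F line. Arrays of the same time lay close together in both lines, and the 12 h array was the highest of each line. The line difference was 0.06 (95% confidence interval -0.12 to 0.23, limma, adjusted p = 0.704). Bbc3 encodes Puma, which frees Bax from its inhibitors. It gave 96.6, 97.6 and 109 in the R388A/Y527F line, against 96.9, 116 and 95.4 in the D386N/Y527F line. The lines overlapped, and the interval of the difference was -0.42 to 0.39. The deposited annotation lists no alignment for this probe set, the only one for Bbc3, so whether it reads Bbc3 mRNA was not tested.

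Trp53inp1 encodes a p53-induced nuclear protein that takes part in p53 phosphorylation and in autophagy. Its main probe set gave 119, 213 and 272 in the R388A/Y527F line, against 175, 154 and 239 in the D386N/Y527F line. The lines overlapped, and 12 h was the highest array of each. The line difference was 0.03 (95% confidence interval -0.39 to 0.45, limma). The second probe set, 1416927_at, gave 45.1, 24.3 and 37.1 in the R388A/Y527F line, against 39.3, 56.0 and 51.5 in the D386N/Y527F line, and did not pass (-0.49, SE 0.30, adjusted p = 0.339). The 2 Trp53inp1 probe sets therefore did not have the same order of arrays.

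Perp encodes a membrane protein of desmosomes that takes part in p53-driven death. It gave 51.9, 85.2 and 43.6 in the R388A/Y527F line, against 34.0, 27.5 and 39.6 in the D386N/Y527F line. The lines did not overlap, and the R388A/Y527F array at 1 h was the highest, 3.10 times the D386N/Y527F array of that time. The difference was 0.79 with the main signal and did not pass (SE 0.31, limma, adjusted p = 0.136). In the second summary, with 79.4, 92.9 and 59.7 in the R388A/Y527F line and 25.8, 23.9 and 40.7 in the D386N/Y527F line, it was 1.38 and passed (SE 0.27, adjusted p = 0.0210). There it did not pass without the 0 h arrays (0.0814) or the 1 h arrays (0.0674).

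Of the epithelial markers, Krt8 was, like Perp, higher in the R388A/Y527F line and highest there at 1 h. The other times did not match. In the D386N/Y527F line Krt8 was lowest at 12 h, where Perp was highest. In the R388A/Y527F line Krt8 was lowest at 0 h and Perp at 12 h. The summed signal of the 6 markers was between 193 and 315 in the R388A/Y527F line and between 154 and 179 in the D386N/Y527F line, and Krt8 gave 109, 166 and 132 in the R388A/Y527F line, against 75.8, 74.1 and 60.2 in the D386N/Y527F line. Of the 6, 3 were above the floor on all arrays, and none was at 0. The other two of these, Krt5 and Krt18, did not separate the lines, with 34.6, 62.0 and 25.0 for Krt5 in the R388A/Y527F line, against 43.9, 35.0 and 40.6 in the D386N/Y527F line. Krt18 gave 23.2, 24.7 and 35.0 in the R388A/Y527F line, against 23.4, 35.2 and 33.3 in the D386N/Y527F line. Epcam and Cdh1, which define epithelium, reached at most 20.9 and 23.7. Their part in the Perp result was not tested, and in bulk RNA fewer cells of a type and less RNA per cell cannot be told apart.

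Sesn1 encodes sestrin 1, which restrains the mTORC1 kinase complex and oxidative stress, and it was the only member gene with called probe sets below the D386N/Y527F line. The main probe set, 1454699_at, gave 219, 208 and 162 in the R388A/Y527F line, against 317, 276 and 257 in the D386N/Y527F line. Every R388A/Y527F array was below every D386N/Y527F array, and 12 h was the lowest of each line. The difference was -0.54 (SE 0.10, limma, adjusted p = 0.0111) and in the second summary -0.62 (SE 0.09, adjusted p = 0.00949). Without the arrays of 0, 1 or 12 h the main value had an adjusted p of 0.0848, 0.0789 or 0.135.

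The Sesn1 probe set 1438931_s_at gave 237, 202 and 190.2 in the R388A/Y527F line, against 385, 303 and 289.5 in the D386N/Y527F line. Its difference was -0.63 (SE 0.09, limma, adjusted p = 0.00365). The probe set 1433711_s_at gave 572, 578 and 551 in the R388A/Y527F line, against 720.5, 724 and 693 in the D386N/Y527F line, with little spread inside either line, and its difference was -0.33 (SE 0.07, adjusted p = 0.0196). With the arrays of 1 time left out, the adjusted p lay between 0.0485 and 0.0828 for 1438931_s_at, passing without the 0 h arrays, and between 0.0933 and 0.168 for 1433711_s_at. The fourth probe set, 1444376_at, was near the floor, between 15.4 and 30.0, and did not pass (-0.20, SE 0.20, adjusted p = 0.586). Sesn1 lies on chromosome 10 with Mdm2 and Perp, whose differences had the opposite sign.

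The question of the imidazole treatment is whether genes change with time in the line whose kinase is rescued and not in the other. Limma called 0 member probe sets for the change at 1 h common to both lines, 0 for that at 12 h and 0 for the difference in treated minus untreated change between lines, in both summaries. In each of these fits 0.0% of all probe sets were called. Below an unadjusted p of 0.05 there were 3 member probe sets at 1 h, 5 at 12 h and 1 for the interaction, of 21 tested. The share of all probe sets there was 4.02%, 7.32% and 3.70%. The second summary had 1, 4 and 1 of 19, where the shares were 4.36%, 11.2% and 4.56%.

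Of these, Trp53inp1 at 12 h had the lowest p. The common change of its main probe set was 0.82 on the log2 scale (95% confidence interval 0.30 to 1.33, limma, adjusted p = 0.449). In the second summary it was 0.64 (adjusted p = 0.267). The 12 h array was 2.29 times the 0 h array in the R388A/Y527F line, the 1 member probe set past 2-fold there, and 1.36 times in the D386N/Y527F line. Of all probe sets, 2.11% passed 2-fold in the first of these comparisons. In the second summary 0 members passed 2-fold there, against 0.152% of all probe sets. The other Trp53inp1 probe set, 1416927_at, had a common change at 12 h of 0.05 (SE 0.36), and 0.14 in the second summary (SE 0.14).

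Bax at 12 h had a common change of 0.29 (SE 0.09, limma, adjusted p = 0.526), with log2 values of 0.30 in the R388A/Y527F line and 0.28 in the D386N/Y527F line. Gadd45a had 0.38 at 12 h in the second summary (adjusted p = 0.293). At 1 h the main Trp53 probe set had -0.32 (SE 0.11, adjusted p = 1.0), made of -0.44 in the R388A/Y527F line and -0.20 in the D386N/Y527F line. For the interaction the lowest member p in the main summary belonged to Mdm2 1423605_a_at (-0.45, 95% confidence interval -0.88 to -0.01, adjusted p = 0.996), and in the second summary this value was -0.07 (adjusted p = 1.0). There the lowest member p belonged to Cdkn1a 1421679_a_at (0.40, 95% confidence interval 0.10 to 0.70, adjusted p = 1.0). The untreated R388A/Y527F array of Mdm2 1423605_a_at was the highest of the 6 in the main summary. With 1 array a group these differences have no replicate of their own.

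**Figure D3:**
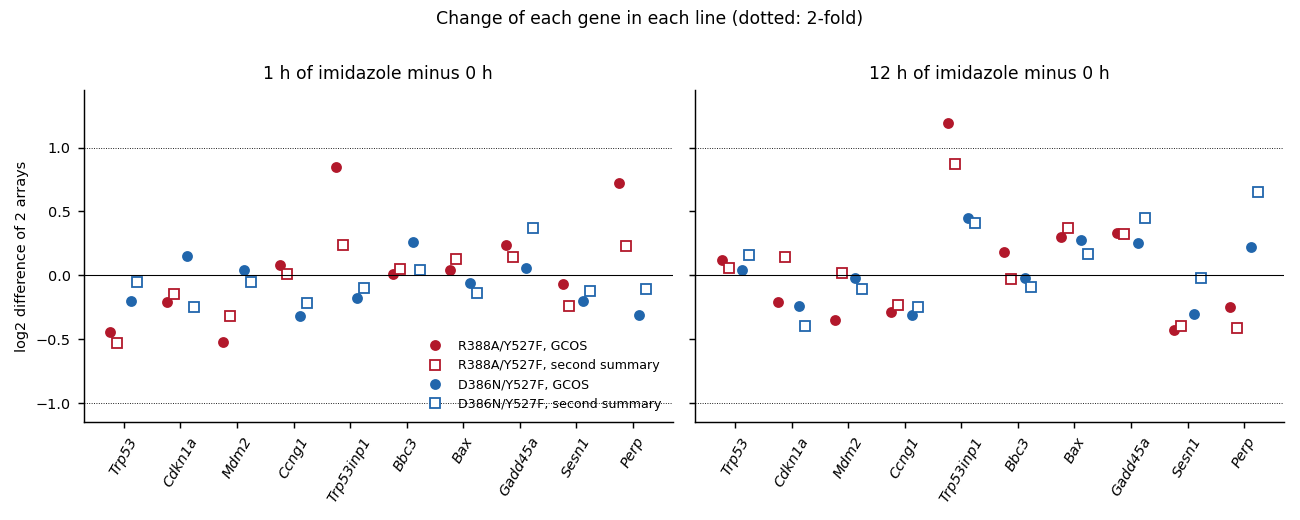
Log2 change from the 0 h array at 1 h (left) and 12 h (right) for the primary probe set of each gene, R388A/Y527F in red and D386N/Y527F in blue, circles for the GCOS signal and squares for the second summary. Each point is a difference of 2 arrays; only Trp53inp1 at 12 h in the R388A/Y527F line (1.19, main summary) lies past the dotted 2-fold line.

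Single pairs of arrays were also compared, with no test, at a ratio of at least 2-fold with the brighter array above the floor. Between lines at 0 h, Ccng1 1450016_at and Gadd45a passed, 2 of 21 measured, where 5.27% of all probe sets did. At 1 h Gadd45a, Perp and the second Trp53inp1 probe set (lower) passed, against 5.85%, and at 12 h Ccng1 1450016_at and Gadd45a, against 5.78%. In the second summary they were Gadd45a and Perp at 0 h (3.59% of all probe sets), the same 2 at 1 h (3.76%), and Ccng1 and Gadd45a at 12 h (3.69%), so Gadd45a was past 2-fold at all 3 times in both. Within lines no member probe set passed in the R388A/Y527F line at 1 h (2.24% of all probe sets), nor in the D386N/Y527F line at 1 h (2.39%) or 12 h (2.52%).

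Other genes of the pathway were read in lists, with 1 primary probe set a gene. Of all 15203 named genes tested for the line difference in the main summary, 17.0% were called, 8.04% higher and 8.97% lower. Their median difference was -0.01 on the log2 scale. In the second summary 29.4% of 13513 named genes were called, 12.5% higher and 16.9% lower, with a median of -0.02. Of 24 regulators of p53, 2 were higher and 3 lower, with a median of -0.04, and the second summary had 2 higher and 4 lower, with a median of 0.0. Ube3a, a ubiquitin ligase, was 0.64 higher and Cdkn2a, whose Arf product blocks Mdm2, was 0.43 higher in log2 terms. Chek2, the checkpoint kinase that phosphorylates p53, was at -0.55 (limma, adjusted p = 0.0107), as was Ppp1r13b, a p53-binding protein (adjusted p = 0.0114). Of these 4, Cdkn2a did not pass in the second summary (adjusted p = 0.0587).

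Of 11 other arrest targets, 6 were called, 2 higher and 4 lower, with a median difference of -0.46. The second summary gave 7 calls, 2 higher and 5 lower, with a median of -0.20. Rprm, a mediator of G2 arrest, gave 84.5, 102 and 78.1 in the R388A/Y527F line, against 23.1, 40.7 and 26.4 in the D386N/Y527F line (log2 difference 1.59). Plk3, a stress-responsive kinase, was 1.18 higher. Sfn, the 14-3-3 sigma protein that holds Cdc25 and Cdk1 in the cytoplasm, was at -0.95, but at -0.20 and not called in the second summary (adjusted p = 0.476). Psrc1, a microtubule-binding protein, was at -0.82. Arrest targets of p53 thus stood on both sides of 0, with Gadd45a on the side of Rprm and Plk3.

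Of 20 other genes of the death list, 3 were higher and 4 lower, with a median of -0.05. The second summary had 4 higher and 4 lower of 19, with a median of -0.10. Bcl2, which opposes death and stood on this list beside its promoters, had the largest difference. It gave 123, 157 and 155 in the R388A/Y527F line, against 34.6, 37.3 and 53.4 in the D386N/Y527F line (log2 difference 1.82, limma, adjusted p = 0.00106). Aen, a p53-induced nuclease, was 0.93 higher. Eda2r, a receptor, was at -0.62 and Bid, which links death receptors to Bax, at -0.61.

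Of 19 measured genes of repair and metabolism, 2 were higher and 2 lower, with a median of -0.09. The second summary had 2 higher and 4 lower of 18, with a median of -0.20. Ephx1, an epoxide hydrolase, gave 309, 277 and 231 in the R388A/Y527F line, against 740.0, 671 and 725 in the D386N/Y527F line (log2 difference -1.40). Ddit4, an inhibitor of mTORC1 like the sestrins, was at -0.57. Prkab1, a subunit of the kinase AMPK, was 0.51 higher and Slc19a2, a thiamine transporter, 0.36 higher.

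p21 lowers many cell cycle genes through the DREAM repressor complex. Of 15 such genes 0 were called higher and 1, cyclin B2 (Ccnb2), lower. It gave 1458, 1522 and 1273 in the R388A/Y527F line, against 2149, 2033 and 1877 in the D386N/Y527F line (-0.51, limma, adjusted p = 0.00455). In the second summary 4 of the 15 were lower, Ccnb2 with Ccnb1, Cdk1 and Plk1, where 29.4% of all named genes were called, 12.5% higher and 16.9% lower. Both other p53 family genes, Trp63 and Trp73, were tested in the main summary only, and neither was called.

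Of 6 measured genes of the desmosome, the structure that holds Perp, 2 were lower and none higher. The second summary tested 5, with 2 lower and none higher. Dsc2 was below the floor on every array of the main summary. Dsg2 and Dsp lay near that floor, at 11.2 to 35.9 and 9.9 to 28.8. Pkp1 gave 103, 74.6 and 87.8 in the R388A/Y527F line, against 265, 251 and 256 in the D386N/Y527F line (-1.55, limma, adjusted p = 0.000354), and Pkp2 was at -1.04. Both are plakophilins, plaque proteins of the desmosome. They stood on the opposite side from Perp.

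For the changes at 1 h and 12 h and the interaction, 0 genes of any of these lists were called by limma in either summary. At 12 h, 14 of the 15 genes of the p21 and DREAM list had a value below 0 in the main summary. Of all 15203 named genes, 7526 did. The median of the list was -0.18, where the median of all named genes was 0.0. The second summary had 14 of 15 below 0 too, with a median of -0.24. There 7576 of 13513 named genes were below 0, with a median of -0.02. No single gene of that list passed, so these are values and not calls.

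**Figure D4:**
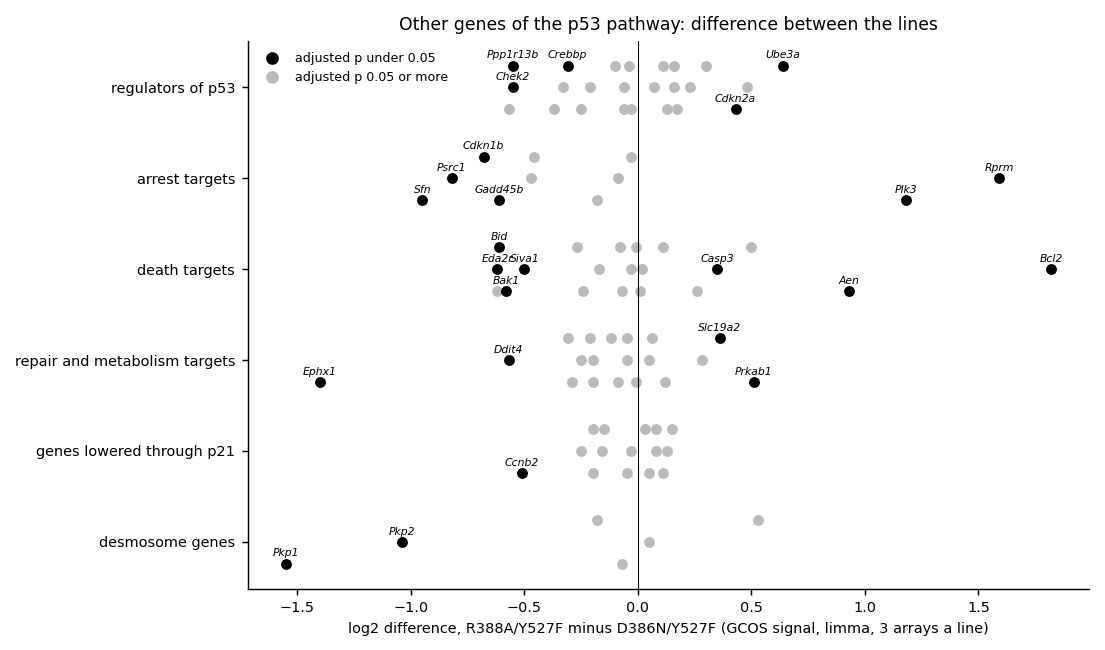
Log2 difference of the R388A/Y527F line minus the D386N/Y527F line (GCOS signal, limma, 3 arrays a line) for each tested gene of 6 p53 pathway lists, black and named where the adjusted p was below 0.05, grey otherwise, with heights within a list set only to separate points. Called genes lie on both sides of 0 in the regulator, arrest, death and repair lists, from -1.40 for Ephx1 to 1.82 for Bcl2, while the called desmosome genes and Ccnb2 lie below 0.

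The genes whose signal followed Gadd45a and Perp most closely were also read, as a description. These were the 2 genes with a main probe set spanning at least 1 on the log2 scale over the arrays in both summaries. Over the 6 arrays, and among 10802 genes, Spry1, Rhbdf2 and Slc5a3 were nearest to Gadd45a, with Pearson r of 0.992, 0.987 and 0.993 in the main summary. Spry1, an inhibitor of receptor tyrosine kinase signalling, gave 269, 276 and 367 in the R388A/Y527F line, against 104, 105 and 124 in the D386N/Y527F line. For Perp the nearest were Atp2b1, Pfdn1 and R3hdm1, with r of 0.961, 0.982 and 0.987. All 6 share the gap between lines, and they were picked for their r out of all 10802 genes.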

How the data were processed

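RNA was amplified in 1 round, per the labels' protocols. The deposited values are linear intensities, and the submitters' processing notes name GCOS 1.3. A deposited workbook holds the same values (0 differ) and a second intensity summary of the same arrays whose method is not given in the sources used here. Symbols came from the platform annotation or, failing that, the deposited annotation, giving 41332 of 45037 probe sets 1 symbol. A gene's primary probe set was chosen by suffix, then by mean signal.

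Signals under the 40th percentile (20.4 for GCOS, 11.3 for the other) were set to it and taken to log2. The models, run in limma 3.58.1 (R 4.3.3), took probe sets above it on at least 2 arrays (trended variance prior, Benjamini-Hochberg over 29728 and 27500 probe sets). One model had line and time and the other line, treatment and their product, each with 2 residual degrees of freedom. The fit was tested on simulated data. All member probe sets were named, with up to 4 called genes a list by size and the 3 genes most like a variable member. Alternatives were another normalization, floor, pseudocount, filter, prior, gene summary and each time left out. Members and lists were chosen with earlier results of these data known. The number of arrays limits precision.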

Additional observations from a re-analysis of the deposited data

How the results depend on the processing

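The 8 member probe sets called for the line difference became 0 without the filter on low signals, 1 without the trend in the variance prior, 4 with 1 primary probe set a gene, and 3 with the mean of a gene's probe sets. They became 3 without the 0 h arrays, 1 without the 1 h arrays, 1 without the 12 h arrays, and 3 in the second summary without the 12 h arrays, a setting chosen after seeing the data. Over all probe sets the 4182 calls became 6783 in the second summary, 0 without the filter and 1072 without the trend. With primary probe sets there were 2948 and with gene means 1770. Without the 0 h, 1 h and 12 h arrays there were 1799, 112 and 282, and 1803 in the second summary without the 12 h arrays. Without the filter 12286 probe sets held at the floor on every array enter the variance prior. Settings that use 1 value a gene also test fewer features, and those without a time use 4 arrays. For the other changes the causes were not tested. Gadd45a kept its call except without the filter (adjusted p = 0.0851) and without the 1 h arrays (0.0513), and over its alternatives the adjusted p lay between 3.37e-05 and 0.0851.

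Without the filter, limma also called 2 probe sets at 1 h, 9 at 12 h and 941 for the interaction, 1 of them a member (Cdkn1a 1433359_at). All 45037 probe sets, 25 of them members, entered these fits. The called Cdkn1a probe set was above the floor only on the untreated R388A/Y527F array, at 22.2. It was below the second summary's floor on every array. At 12 h, 2 probe sets were called with a pseudocount of 16, 2 with a floor at the 60th percentile and 2 with primary probe sets. Past 2-fold between lines at 0 h, 1 member probe set stood with the pseudocount and 1 with primary probe sets. At 1 h there was 1 with the higher floor and at 12 h 1 with primary probe sets. In the R388A/Y527F line at 12 h there were 0 in the second summary and 2 with the pseudocount. Apart from the second summary, no share of all probe sets stands beside these 2-fold counts. They are therefore not read as a result about the members. Genes called in the p21 and DREAM list became 4 in the second summary and 3 after quantile normalization.

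Signs turned only for probe sets that were not called. Mdm2 1457929_at was -0.14 without the 1 h arrays. Trp53inp1 1416926_at was -0.23 with gene means, -0.19 without the 1 h arrays, -0.05 without the 12 h arrays and -0.05 in the second summary without them, and Trp53inp1 1416927_at was 0.06 in the second summary without the 1 h arrays. Bbc3 was 0.10 without the 1 h arrays. Bax was -0.03 in the second summary, -0.09 there without the 1 h arrays and -0.05 there without the 12 h arrays. Of the other line differences, 187 kept direction and side of the threshold, 46 lost the call and 12 gained it. No further pairing was possible, because the replicate numbers, all 1, pair nothing beyond the times. The model with line and time already holds time as a term and so compares the lines within times.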
